A study of Mus musculus with 8 samples.

Results

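Semaphorins are extracellular signals, secreted or held at the cell surface, that steer growing axons, migrating neurons and blood vessels. Plexins are their transmembrane receptors, whose cytoplasmic part acts on small GTPases and through them on the cytoskeleton, and neuropilins are co-receptors that bind most of the secreted class 3 semaphorins and hand the signal to class A plexins. In the developing cerebral cortex these genes are known for guiding cortical axons, setting the position and dendrite orientation of projection neurons, and regulating oligodendrocyte precursors and vessels. The members described here were taken by name: protein-coding mouse genes called Sema3a to Sema7a, Plxna1 to Plxnd1, Nrp1 and Nrp2. The files held 31 of them among 48709 genes, namely 20 semaphorins, 9 plexins and 2 neuropilins. All 31 passed the filter on low counts and were among the 16525 genes tested.

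RNA from the P3 cortex of 4 control and 4 dcKO_hGFAP-Cre mice on a C57BL/6J background was sequenced, and the methods call the tissue dorsal telencephalon (dTel). In the mutants both alleles of the BAF155 gene (Smarcc1) and of the BAF170 gene (Smarcc2) are floxed and Cre is expressed from a human GFAP promoter, whose activity is given as prominent in dTel radial glia by E15.5. By the methods the controls also carry Cre, with 1 floxed and 1 normal allele of each gene, although the design text calls them wild types. Which of these genotypes the sequenced controls had was not settled here. Cells that arise outside the Cre domain keep both subunits in the mutants, which die soon after birth. Total counts were between 21126713 and 31805395 in control and between 22002784 and 32110285 in dcKO_hGFAP-Cre samples. Expression is given in CPM, TMM-scaled counts relative to library size, and comparisons between genes use CPM per kilobase of exon.

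Both targeted genes were lower in every mutant. Smarcc1 was expressed at 144, 162, 170.4 and 160.4 CPM in control replicates 1 to 4 and at 79.4, 73.6, 86.9 and 84.7 CPM in the mutants. For Smarcc2 the values were 500.3, 472, 489 and 469 CPM in control and 291, 266, 256 and 319 CPM in the mutants. Each of the 10 upper-layer neuron markers was detected. No gene of the other marker lists was at 0 in all samples either, so detection alone cannot check the cortical label. Mutant replicates 1 and 2 stood apart in Ttr, a choroid plexus gene, with 584 and 1128 CPM against 15.8 and 1.72 CPM in replicates 3 and 4 and at most 9.37 CPM in control. Mutant replicate 3 stood apart in the summed radial glia and astrocyte markers, with 3038 CPM against 1327 to 1652 CPM in the other mutants. Mitochondrial genes took 2.06 to 3.23% of counts in control and 3.57 to 5.47% in the mutants, and the part of this in the results was not tested. The labels name no litter or animal, so p-values measure the spread between these samples. Each call below was also examined with every replicate left out in turn and with mutant replicates 1 and 2 left out together.

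Of the 31 members, 14 were lower and 4 higher in dcKO_hGFAP-Cre than in control cortex at an adjusted p under 0.05, the threshold used for every call. Over all 16525 genes tested, 18.9% were lower and 18.6% higher, so falls made up 45.2% of the members and rises 12.9%. The log2 fold change of dcKO_hGFAP-Cre over control (log2FC) is given with its standard error (SE) and its adjusted p (padj). Its median over the members was -0.18, and that of all genes tested was 0.02. In 12 members every mutant lay below every control, as did 17.7% of all genes, and in 4 members every mutant lay above every control, as did 16.7% of all genes. The 4 members Sema7a, Plxnb3, Plxna4 and Nrp1, fell with a log2FC of -1 or less, which 2.81% of all genes did. Scaled by library totals instead of TMM, which moved the all-gene median to 0.15, 11 members were lower and 6 higher, while 2102 of all genes were lower and 4584 higher in that fit, against 3128 and 3074 with TMM. In bulk tissue, fewer cells of a type cannot be told apart from less RNA per cell.

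**Figure D1:**
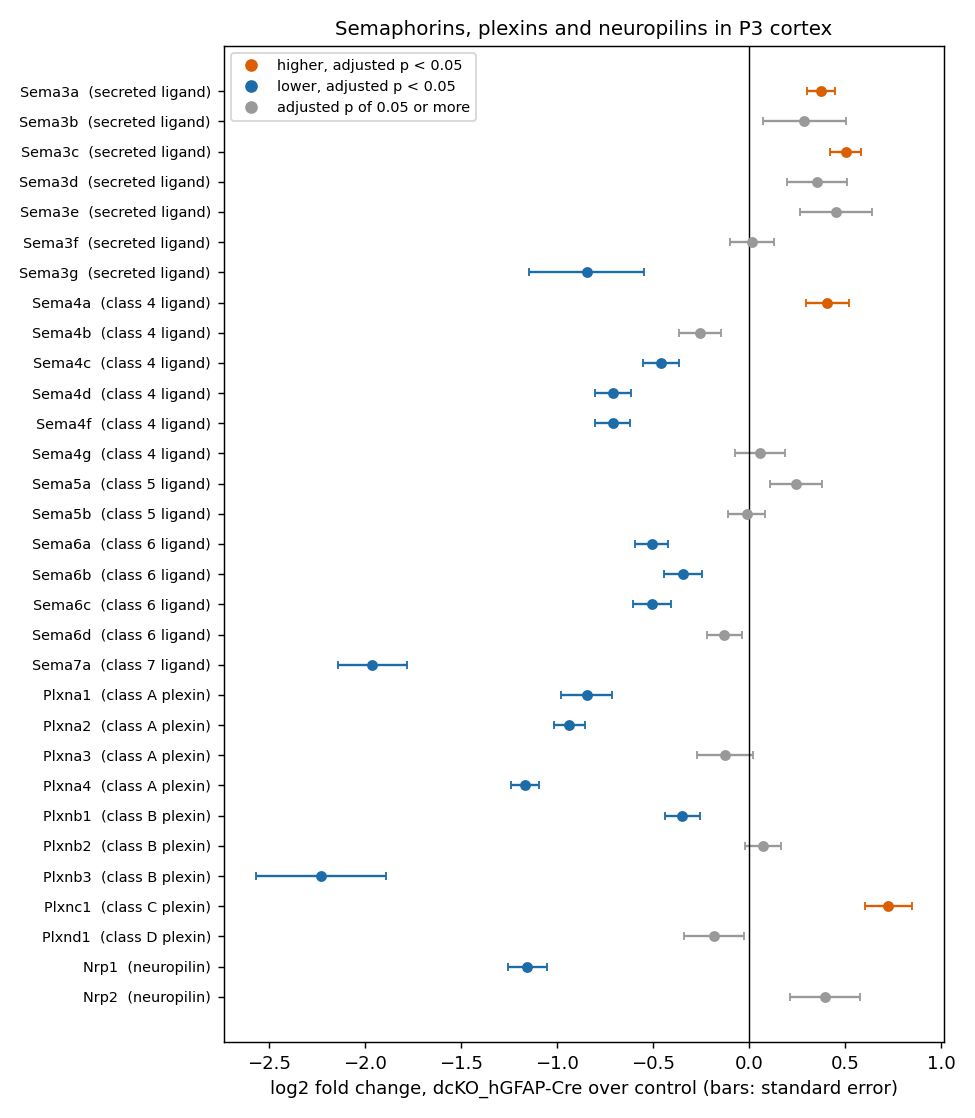
Log2 fold change (dcKO_hGFAP-Cre over control, x axis) of each of the 31 members with its standard error, ordered by class. Falls from -0.34 in Sema6b to -2.23 in Plxnb3 and 4 rises, of up to 0.72 in Plxnc1, passed the threshold.

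For the 5 members on which the contrasts below turn, the 250 bases before the RefSeq transcription start are printed, with GRCm38.p6 coordinates and the strand of the gene. They show the ligand Sema7a and its receptor Plxnc1, which moved in opposite directions, the 2 neuropilins, of which 1 fell, and Plxnb3, the member with the largest fall. Capitals mark matches, on either strand, to the GC box (GGGCGG), the CCAAT box (CCAAT), the TATA box (TATAAA), the SOX core (ACAAT) and an E-box (CAGCTG), of which no pair shares a match in these windows apart from 2 GC boxes that overlap in Nrp2. The windows lie at chr9:57939862-57940111 (plus strand, Sema7a), chr10:94944846-94945095 (minus strand, Plxnc1), chr8:128358823-128359072 (plus strand, Nrp1), chr1:62703067-62703316 (plus strand, Nrp2) and chrX:73756853-73757102 (plus strand, Plxnb3). The GENCODE gene models start elsewhere for some of these genes. By them the Nrp1 window lies inside the gene, which starts at 128358604. The Nrp2 and Plxnb3 windows end past the gene starts at 62703285 and 73757090.
Sema7a: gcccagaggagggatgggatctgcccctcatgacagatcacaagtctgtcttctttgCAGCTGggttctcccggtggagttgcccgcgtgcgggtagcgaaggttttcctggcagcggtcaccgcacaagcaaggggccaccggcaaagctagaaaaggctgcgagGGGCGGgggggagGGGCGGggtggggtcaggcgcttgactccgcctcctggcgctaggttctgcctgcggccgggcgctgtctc
Plxnc1: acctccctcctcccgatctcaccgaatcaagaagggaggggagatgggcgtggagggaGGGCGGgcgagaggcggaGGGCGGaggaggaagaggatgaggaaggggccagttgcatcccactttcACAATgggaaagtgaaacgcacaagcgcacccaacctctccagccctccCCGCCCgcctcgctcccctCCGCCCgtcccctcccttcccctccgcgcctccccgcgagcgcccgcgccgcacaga
Nrp1: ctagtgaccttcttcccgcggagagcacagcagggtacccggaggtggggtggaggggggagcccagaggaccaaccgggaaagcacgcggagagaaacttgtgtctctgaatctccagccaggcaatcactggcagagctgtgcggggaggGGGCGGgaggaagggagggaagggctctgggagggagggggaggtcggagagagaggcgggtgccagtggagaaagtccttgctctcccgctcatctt
Nrp2: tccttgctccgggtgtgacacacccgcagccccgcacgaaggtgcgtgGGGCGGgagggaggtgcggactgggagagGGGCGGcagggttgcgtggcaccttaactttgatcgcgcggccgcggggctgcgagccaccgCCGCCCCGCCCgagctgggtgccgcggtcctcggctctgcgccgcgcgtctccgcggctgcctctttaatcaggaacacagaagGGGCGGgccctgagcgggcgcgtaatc
Plxnb3: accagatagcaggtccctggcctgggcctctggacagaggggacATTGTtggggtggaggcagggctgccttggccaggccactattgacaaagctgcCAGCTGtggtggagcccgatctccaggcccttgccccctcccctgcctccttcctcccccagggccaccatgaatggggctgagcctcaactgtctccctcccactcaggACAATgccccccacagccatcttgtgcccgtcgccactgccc
Sema7a held 2 GC boxes and 1 E-box, Plxnc1 held 4 GC boxes and 1 SOX core, Nrp1 held 1 GC box and Nrp2 held 5. Plxnb3 held no GC box but 2 SOX cores and 1 E-box, and it had 3 CpG sites where Nrp2 had 32. Windows were on file for 26 of the 31 members, 37 windows in all. A GC box was found in 27 of these 37 and in 32.7% of all 32851 windows, a CCAAT box in 7 of 37 and 33.8%, and a SOX core in 9 of 37 and 27.7%. The E-box was found in 6 of 37 and in 13.0% of all, and the TATA box in 0 of 37 and in 12.4%. These matches describe the letters of the windows, and binding was not measured. The median GC content over all windows was 52.4%, while the 5 printed windows had 64.4 to 72.4%. Member windows ran from 40.8% in Sema3a to 78.4% in Sema3c. Some members supplied several windows, Sema4a 4 of them. The part of base composition in the shares of matches was not tested.

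Among the ligands, Sema7a moved most. It encodes the GPI-anchored semaphorin that signals through Plxnc1 and through integrins containing the beta-1 subunit, and it is known for promoting axon growth. Sema7a (ENSMUSG00000038264, chromosome 9 of mm10 from 57940112 to 57962865) was expressed at 212, 237, 293 and 316 CPM in control replicates 1 to 4 and at 74.1, 48.9, 85.2 and 62.9 CPM in the mutants. The highest mutant thus lay far below the lowest control. The mean fell from 264 ± 48.2 to 67.8 ± 15.5 CPM (SD, n = 4 each), a log2FC of -1.96 (SE 0.18, padj = 3.56e-05). Leaving out any 1 sample gave values from -2.09 to -1.84. Per kilobase, Sema7a was the most highly expressed member in control cortex, at 80.2 ± 14.6 CPM per kilobase, and it ranked seventh in the mutants at 20.6 ± 4.71. It supplied 29.1 ± 3.61% of the summed length-scaled level of the 20 semaphorins in control and 11.1 ± 2.99% in dcKO_hGFAP-Cre cortex (SD, n = 4 each). That sum was 251 to 293 CPM per kilobase in control and 173 to 202 in the mutants, so the groups did not overlap.

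Of the 7 secreted class 3 ligands, 2 rose, Sema3a and Sema3c, 1 fell, Sema3g, and 4 did not pass the threshold. Sema3c was expressed at 47.2, 46.5, 39.8 and 43.7 CPM in control and at 65.8, 59.8, 60.3 and 64.8 CPM in the mutants. Every mutant was above every control, with a log2FC of 0.50 (SE 0.08, padj = 6.27e-04). Sema3a, the repellent of cortical axons that acts through Nrp1, was expressed at 38.1 to 40.2 CPM in control and at 49.5 to 51.9 CPM in the mutants, with little spread within either group. Its log2FC was 0.38 (SE 0.07, padj = 0.00179).

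Sema3e, which binds Plxnd1 without a neuropilin, was expressed at 9.02, 13.3, 9.0 and 9.20 CPM in control and at 13.2, 9.49, 15.8 and 16.7 CPM in the mutants. Control replicate 2 lay among the mutants and mutant replicate 2 among the controls, and the log2FC of 0.45 (SE 0.19) had an adjusted p of 0.0727. Without control replicate 2 it was 0.60 (padj = 0.0299), without mutant replicate 2 it was 0.59 (padj = 0.0208), and without mutant replicates 1 and 2 it was 0.68 (padj = 0.0289). Sema3d, Sema3b and Sema3f had log2FC values of 0.35, 0.29 and 0.01 and adjusted p-values of 0.0908, 0.312 and 0.934. Sema3f, the class 3 ligand that acts through Nrp2, was thus at 38.2 ± 3.30 CPM in control and 38.6 ± 5.95 CPM in the mutants (SD, n = 4 each).

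Sema3g, a class 3 gene known from endothelial cells, had the largest absolute log2FC of the class. It was expressed at only 1.52, 2.86, 3.22 and 2.74 CPM in control and 1.88, 1.74, 1.47 and 0.755 CPM in the mutants, from 33 to 97 and from 25 to 44 counts. Of the mutants, 2 lay below every control and 2 lay above control replicate 1. The log2FC was -0.85 (SE 0.30, padj = 0.0417), and it rests on few counts. The call was lost when control replicate 2, 3 or 4 or mutant replicate 3 or 4 was left out (padj = 0.0951, 0.123, 0.0853, 0.0585 and 0.0844, in that order), and with library totals (0.0746).

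The membrane-bound class 4 ligands split. Sema4d, the Plxnb1 ligand, was expressed at 43.7, 44.8, 49.5 and 44.6 CPM in control and at 29.6, 28.9, 24.1 and 29.2 CPM in the mutants. The mean fell from 45.6 ± 2.60 to 27.9 ± 2.60 CPM (SD, n = 4 each), a log2FC of -0.71 (SE 0.09, padj = 1.19e-04). Sema4f was expressed at 86.5, 86.1, 96.5 and 90.1 CPM in control and 50.1, 56.2, 50.1 and 62.9 CPM in the mutants, a log2FC of -0.71 (SE 0.09, padj = 1.03e-04). Sema4c, a ligand of Plxnb2, fell from between 94.9 and 112 CPM to between 65.0 and 85.2 CPM, a log2FC of -0.46 (padj = 0.00236). Its exons share 7.27% of their length with a transcript on the other strand. In these 3 genes every mutant lay below every control.

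Sema4a rose, from between 38.4 and 45.6 CPM in control to between 47.9 and 68.3 CPM in the mutants. Its log2FC was 0.41 (SE 0.11, padj = 0.0131), and without mutant replicates 1 and 2 it was 0.48 with an adjusted p of 0.0540. Sema4b had a log2FC of -0.26 (padj = 0.0789). Sema4g, the class 4 gene with the highest length-scaled level in control, had a log2FC of 0.06 (padj = 0.758), with mutant values from 172 to 272 CPM around control values from 207 to 258 CPM.

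All 4 class 6 ligands, transmembrane semaphorins that bind class A plexins, had a negative log2FC, and 3 passed the threshold. Sema6a, which binds Plxna2 and Plxna4, was expressed at 91.4, 95.9, 100.5 and 93.9 CPM in control and 60.3, 70.3, 75.3 and 62.6 CPM in the mutants. No mutant reached the lowest control, and the log2FC was -0.51 (SE 0.09, padj = 7.10e-04). Sema6c was expressed at 162, 147, 170.1 and 183 CPM in control and at 116, 115, 99.8 and 135 CPM in the mutants, again without overlap, and its log2FC was -0.51 (SE 0.10, padj = 0.00184). Sema6b had a log2FC of -0.34 (padj = 0.0173), with 3 of 4 mutants below all controls. The Sema6b call was lost without control replicate 3 (padj = 0.0598) or 4 (0.0518), without mutant replicates 1 and 2 (0.126, at a log2FC of -0.33) and with library totals (0.0840, at -0.22). For Sema6d, a ligand of Plxna1, the log2FC was -0.13 (padj = 0.289). The class 5 ligands Sema5a and Sema5b, which carry thrombospondin repeats, had log2FC values of 0.24 and -0.01 and adjusted p-values of 0.173 and 0.925.

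**Figure D2:**
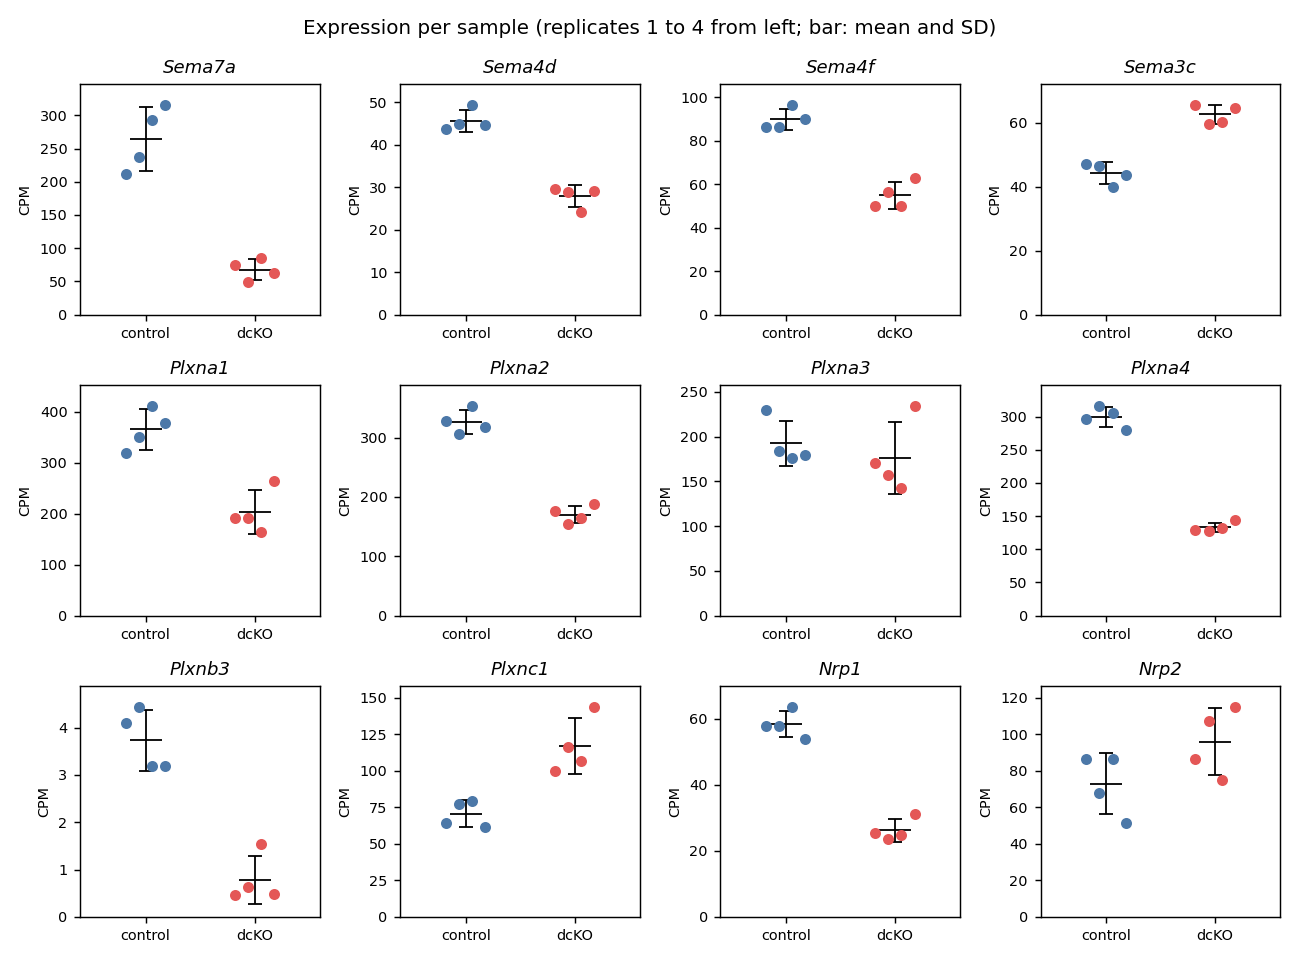
CPM of 12 members in the 4 control (blue) and 4 dcKO_hGFAP-Cre (red) samples, with the mean and SD of each group. The groups are apart in all panels except Plxna3 and Nrp2, where mutant and control values overlap.

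Among the receptors, 5 of 9 plexins fell and 1 rose. The class A plexins, which transduce class 3 signals with neuropilins and bind class 6 semaphorins directly, included 3 of these falls. Plxna4 (chromosome 6 from 32144268 to 32588192) was expressed at 296, 316, 305 and 280.1 CPM in control and at 129, 128, 132 and 143 CPM in the mutants. The values were tight in both groups, and the log2FC of -1.17 (SE 0.07) had the smallest adjusted p of the 31 members, 8.71e-07. Plxna2 (chromosome 1 from 194618218 to 194816869) was expressed at 328, 306, 353 and 318 CPM in control and 176, 154, 164 and 187 CPM in the mutants, a log2FC of -0.94 (SE 0.08, padj = 6.25e-06).

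Plxna1 was expressed at 319, 351, 411 and 379 CPM in control and at 191, 192, 164 and 264 CPM in the mutants. Replicate 4 was the highest mutant but still lay below every control, and the log2FC was -0.85 (SE 0.13, padj = 5.70e-04). The exons of Plxna1 share 10.7% of their length with an antisense gene, and the library kit does not mark strand, so reads of the 2 genes cannot be told apart there. Plxna3, the class A plexin associated with Sema3f and Nrp2, was expressed at 230.3, 184, 176 and 179 CPM in control and at 170.4, 157, 143 and 235 CPM in the mutants. Mutant replicate 4 exceeded every control while the other 3 mutants lay below all of them, and the log2FC was -0.13 (SE 0.15, padj = 0.527).

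The make-up of the class A plexins therefore shifted. On the length-scaled scale Plxna3 supplied 23.3 ± 3.29% of their sum in control and 34.6 ± 1.88% in dcKO_hGFAP-Cre cortex (SD, n = 4 each), while Plxna4 supplied 20.2 ± 1.15% and 14.9 ± 1.74%. The ratio of Plxna4 to Plxna3 within a sample, which does not depend on scaling between samples, was 0.718 to 0.969 in control and 0.342 to 0.515 in the mutants. For Plxna1 over Plxna3 it was 1.21 to 2.04 in control and 0.978 to 1.07 in the mutants, so neither ratio overlapped between the groups. The summed level of the 4 genes was 102 to 109.9 CPM per kilobase in control and 55.2 to 80.1 in the mutants. These ratios were chosen after the values had been seen and carry no test.

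Nrp1 fell, whereas Nrp2 did not pass the threshold. Nrp1 (chromosome 8 from 128358604 to 128503363) encodes the co-receptor for Sema3a, which also binds VEGF-A on endothelial cells, and it was expressed at 58.0, 58.0, 63.6 and 54.0 CPM in control and 25.4, 23.6, 24.7 and 31.1 CPM in the mutants. The mean fell from 58.4 ± 3.96 to 26.2 ± 3.34 CPM (SD, n = 4 each), a log2FC of -1.16 (SE 0.10, padj = 6.83e-06). Nrp2, the co-receptor for Sema3f, was expressed at 86.4, 68.1, 86.3 and 51.3 CPM in control and at 86.4, 107, 75.2 and 115 CPM in the mutants. Its groups overlapped, and the log2FC of 0.39 (SE 0.18) had an adjusted p of 0.117. The 2 genes supplied nearly equal shares in control, with Nrp1 at 49.7 ± 4.89% of their summed length-scaled level, and Nrp1 supplied 25.1 ± 3.13% in the mutants (SD, n = 4 each). Within a sample the ratio of Nrp1 to Nrp2 was 0.812 to 1.27 in control and 0.266 to 0.397 in dcKO_hGFAP-Cre cortex. The ratio of Sema3a to its co-receptor Nrp1 was 0.423 to 0.505 in control and 1.12 to 1.56 in the mutants, again without overlap.

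**Figure D3:**
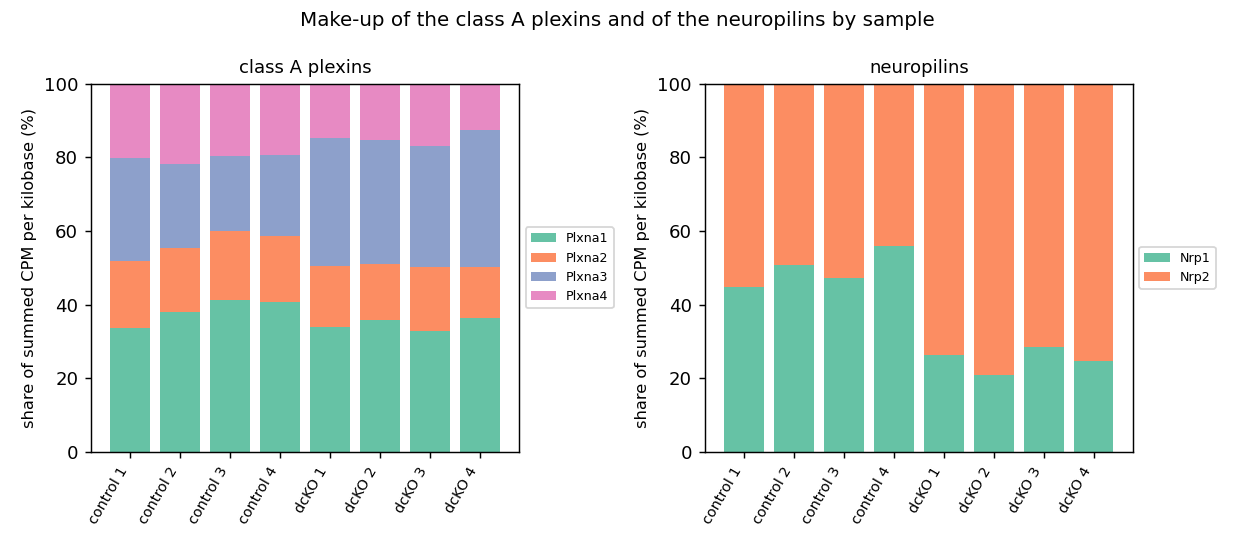
Share (%) of each gene in the summed CPM per kilobase of the 4 class A plexins (left) and the 2 neuropilins (right), by sample. In the mutants Plxna3 averages 34.6% against 23.3% in control, and Nrp1 averages 25.1% against 49.7%.

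Plxnc1, the receptor of Sema7a, was the plexin that rose. Plxnc1 (chromosome 10 from 94790866 to 94944835) was expressed at 64.2, 77.3, 79.7 and 61.5 CPM in control and 100.3, 116, 107 and 144 CPM in the mutants. Each mutant exceeded the highest control, and the log2FC was 0.72 (SE 0.12, padj = 7.15e-04). Ligand and receptor thus changed in opposite directions in the same samples. The length-scaled ratio of Sema7a to Plxnc1 in replicates 1 to 4 came to 8.34, 7.78, 9.29 and 13.0 for control and 1.87, 1.07, 2.02 and 1.11 for the mutants. Itgb1, which encodes the integrin beta-1 subunit, had a log2FC of -0.02 (padj = 0.883).

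The class B plexins ranged from no call to the largest fall of the family. Plxnb3, known from cells of the oligodendrocyte lineage, had the fewest reads of the plexins, with 89, 90, 96 and 92 counts in control and 11, 15, 45 and 16 counts in the mutants. In CPM this was 4.10, 4.44, 3.19 and 3.19 in control and 0.470, 0.636, 1.54 and 0.483 in the mutants, where replicate 3 was the highest mutant and still lay below every control. The log2FC was -2.23 (SE 0.34, padj = 3.66e-04), and leaving out any 1 sample gave values from -2.81 to -2.02. Plxnb1, the Sema4d receptor, fell from between 154 and 196 CPM to between 119 and 137 CPM, a log2FC of -0.35 (SE 0.09, padj = 0.00993). The Plxnb1 call was lost without mutant replicates 1 and 2 (padj = 0.108, at a log2FC of -0.31) and with library totals (0.0746, at -0.23). Plxnb2, a receptor of Sema4c in neural progenitors, had a log2FC of 0.07 (SE 0.09, padj = 0.563), and Plxnd1, the Sema3e receptor, one of -0.18 (SE 0.16, padj = 0.384).

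**Figure D4:**
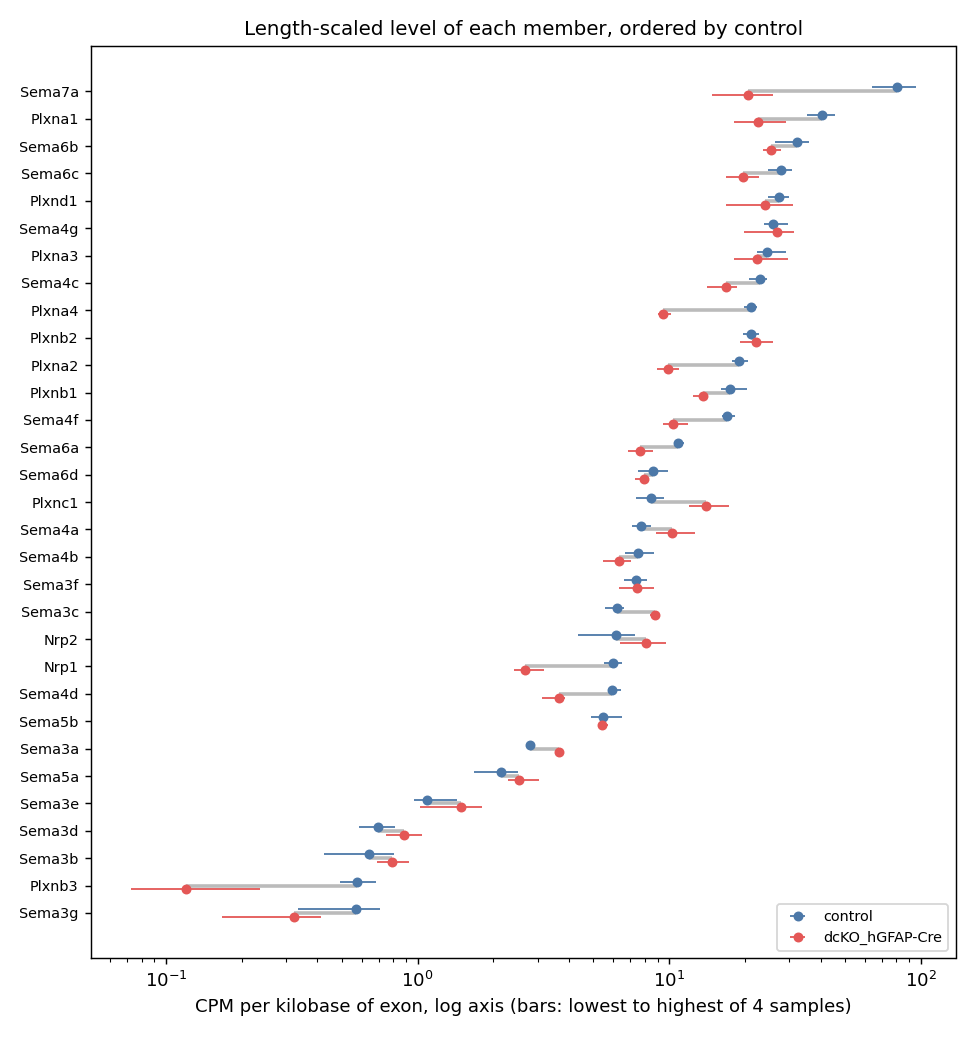
Mean CPM per kilobase of exon (log axis) of each member in control (blue) and dcKO_hGFAP-Cre (red) samples, with bars from the lowest to the highest sample. Sema7a leads in control at 80.2 and stands at 20.6 in the mutants, and Plxnb3 and Sema3g lie at the bottom in both groups.

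In control cortex the length-scaled levels ran from 80.2 CPM per kilobase for Sema7a and 40.3 for Plxna1 down to 0.574 for Plxnb3 and 0.569 for Sema3g. Sema7a was set apart from the next gene, but most neighbours in this order were not, since the ranges of the 4 control samples overlapped in 22 of the 30 neighbouring pairs. A run of 12 genes from Plxna1 through Sema6b, Sema6c, Plxnd1, Sema4g, Plxna3, Sema4c, Plxna4, Plxnb2, Plxna2 and Plxnb1 to Sema4f, at 17.0 CPM per kilobase, held no such gap. The class 3 genes lay in the lower part of the order, from 7.35 for Sema3f to 0.569 for Sema3g. In the mutants the first places went to Sema4g at 26.9, Sema6b at 25.4 and Plxnd1 at 24.1 CPM per kilobase, and Plxna4 moved from place 9 to 15. The ranges of these first 3 overlapped in the mutants, and so did those of Plxna1, from 18.2 to 29.2, and Plxna3, from 18.1 to 29.8, so their order is not resolved.

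Signals of plexins reach the cytoskeleton through collapsin response mediator proteins, MICAL oxidases, FARP proteins, Rnd and R-Ras GTPases and kinases such as Fyn, Cdk5 and Gsk3b. Of 30 such effector genes, all tested, 16 were lower and 5 higher (18.9% and 18.6% of all genes tested), with a median log2 fold change of -0.25. The largest falls were those of Rnd1 (-0.92), Mical2 (-0.91), Crmp1 (-0.85) and Dpysl3 (-0.78), with adjusted p-values of 0.00117, 8.70e-04, 1.13e-05 and 3.47e-06. Crmp1 and Dpysl3 encode collapsin response mediator proteins and were abundant, Dpysl3 at 4666 ± 215 CPM in control and 2723 ± 129.8 CPM in the mutants (SD, n = 4 each). Dpysl2, the founding member of that family, had a log2FC of -0.39 (padj = 0.0211). The Dpysl2 call was lost without control replicate 3 or 4 or mutant replicate 1 (padj up to 0.0696), without mutant replicates 1 and 2 (0.105) and with library totals. The higher genes were Rnd2, Rnd3, Rras, Fes and Cdk5, named after their values were seen, with log2FC values of 0.73, 0.56, 0.68, 0.69 and 0.26. For Cdk5 (padj = 0.0328) the groups overlapped, and the call was kept in 9 of the 17 other fits and was lost without control replicate 1, 2 or 3 or mutant replicate 2 or 3 (padj up to 0.0983). Without mutant replicates 1 and 2 the calls of Cdk5, Fes and Rras were lost (padj = 0.139, 0.126 and 0.0764).

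Of 20 genes for co-receptors and binding partners, 19 were tested, 10 were lower and 2 higher (18.9% and 18.6% of all genes tested), and the median log2 fold change was -0.46. Met, a receptor kinase that associates with class B plexins, fell from 114 ± 10.1 to 23.7 ± 3.34 CPM (SD, n = 4 each), a log2FC of -2.26 (padj = 1.66e-07). Cntn2, an adhesion molecule of cortical axons, fell by 1.17 on the log2 scale (padj = 1.59e-06). Kdr and Flt1, the VEGF receptors that share ligands with Nrp1, had log2FC values of -0.62 and -0.88 (padj = 0.00237 and 2.02e-04). The 2 that rose were Tyrobp and Trem2, the microglial signalling partners of Plxna1, with log2FC values of 1.66 and 1.23 (padj = 8.16e-06 and 1.96e-04), while Plxna1 itself fell. Over the effector and partner lists together 26 genes were lower, 17 were with library totals, 18 without mutant replicates 1 and 2, and 20 to 29 with any 1 sample left out (20 without control replicate 3). Lower calls over all genes went from 3128 to 2102 with library totals and to 1581 without mutant replicates 1 and 2. Among the lower effectors, the calls of Gsk3b, Rac1 and Pak1, named after their values were seen, were kept in 6, 9 and 11 of the 17 other fits.

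Some marker lists of the cell types in the tissue differed between the groups, and others had counts near or below the 18.9% lower and 18.6% higher among all genes tested. Upper-layer neuron markers were lower for 10 of 10 genes, summing to 1373 to 1739 CPM in control and 729.7 to 777 CPM in the mutants, and deep-layer neuron markers for 5 of 9. Oligodendrocyte precursor markers were lower for 9 of 10 genes, summing to 489 to 525 CPM in control and 271 to 354 CPM in the mutants, with replicate 3 the highest mutant there as in Plxnb3. Endothelial markers, which include Kdr and Flt1, were lower for 5 of 10 genes, with sums of 230.4 to 298 CPM in control and 129 to 220.4 CPM in the mutants. Microglia markers, which include Trem2, were higher for 8 of 10 genes, with sums of 129 to 172 CPM in control and 235 to 280.4 CPM in the mutants. Interneuron markers were higher for 10 of 11 genes, Cajal-Retzius markers for 7 of 8, striatal neuron markers for 7 of 12, thalamus and midbrain markers for 6 of 10 tested, hippocampal markers for 4 of 8 and choroid plexus markers for 2 of 6 tested, and 1 thalamus and midbrain and 1 hippocampal marker were lower. Pericyte markers were lower for 2 of 8 genes, radial glia and astrocyte markers for 1 of 10, and no meningeal fibroblast marker of 8 passed the threshold. No listed gene was at 0 in all samples. The part of these differences in the results of single members was not tested.

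**Figure D5:**
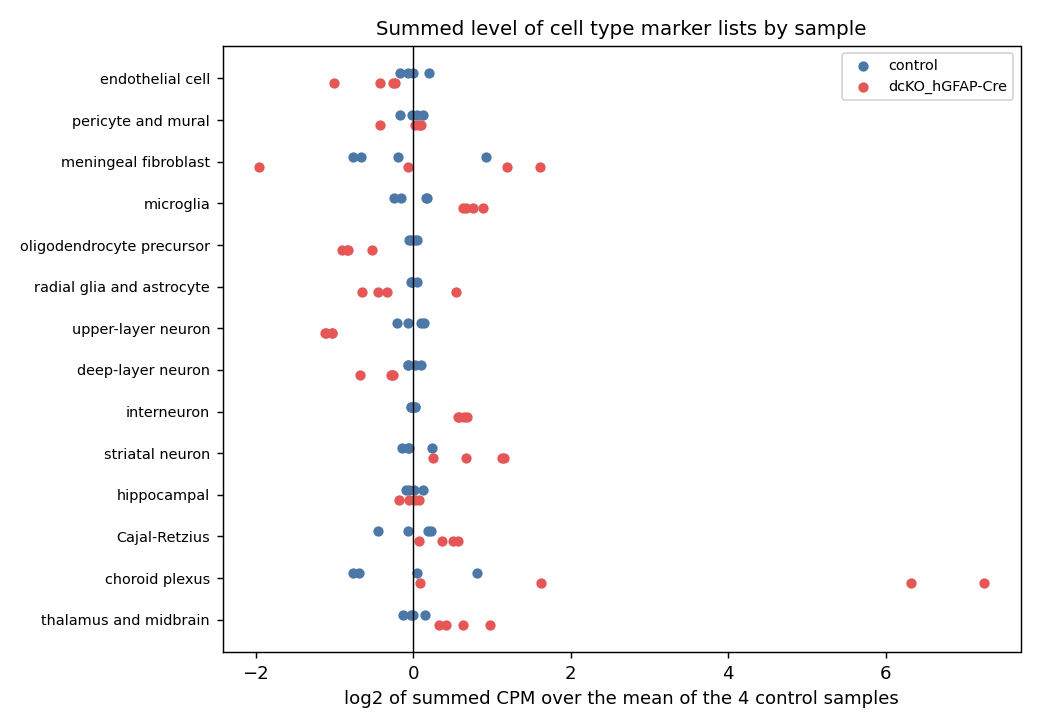
Summed CPM of 14 cell type marker lists in each sample, as log2 over the mean of the 4 control samples (blue, control and red, dcKO_hGFAP-Cre). Upper-layer neuron and oligodendrocyte precursor sums lie lower in all 4 mutants, microglia and interneuron sums lie higher, and the choroid plexus sum is far higher in mutant replicates 1 and 2.

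Of the 18 calls among the members, 14 were made in each of the 17 other fits, which changed the test, scaling, filter, block or samples. These 14 were the rises of Sema3a, Sema3c and Plxnc1 and the falls of Sema4c, Sema4d, Sema4f, Sema6a, Sema6c, Sema7a, Plxna1, Plxna2, Plxna4, Plxnb3 and Nrp1. The groups did not overlap in any of these members (two-sided exact permutation p = 0.0286, the smallest that 4 samples against 4 allow). The members were picked by calls in these same samples, so this adds no separate support. Over all genes tested, every mutant lay below every control in 17.7% and above every control in 16.7%. How many of all genes were called in every fit was not counted.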

How the data were processed

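The authors made libraries with the TruSeq RNA v2 kit, used mm10 as the genome and deposited raw gene counts from featureCounts, 1 file per sample. The aligner, annotation and strand setting are not given in the sources used here. Of 48709 gene IDs, 48349 matched GENCODE M21 (GRCm38), which gave symbols, coordinates and exon lengths. Groups were compared by quasi-likelihood in edgeR 4.0.16 (R 4.3.3) with TMM scaling, a minimum count of 10 in its default filter, and p-values adjusted over all 16525 genes at a threshold of 0.05. The SE was log2FC divided by the square root of F. Alternatives used DESeq2 1.42.0, limma 3.58.1 (voom), other scalings and filters, blocks, and samples left out. In simulated counts with 200 genes changed 2-fold, run on the 16357 of 16525 genes that passed its filter, edgeR recovered 85.0% and 6.08% of its calls were false. Of the calls of limma-voom 5% were false, and of those of DESeq2 10.77%. The data gave 3128 lower and 3074 higher calls, many under 2-fold, so these rates need not hold for them. No replicates agreed within counting noise. In the shallowest sample 3 counts equal 0.148 CPM. Promoter windows are RefSeq's, of GRCm38.p6.

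All 31 members were to be named, with values in every sample for called members with an absolute log2FC of 0.5 or more or an outlying sample, and from the effector and partner lists the 4 largest called changes plus Itgb1, Trem2, Tyrobp, Met, Kdr, Flt1 and Dpysl2. Members and lists were chosen with earlier results of these data known.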

Additional observations from a re-analysis of the deposited data

Results flagged for a closer look

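A sample lay apart from the other 3 of its group, by its gap to the nearest of them as a share of the range, in 4 of 66 groups examined (31 members and the 2 targeted genes in 2 groups each), where chance gives about 3.3. Sema3e was at 13.3 CPM in control replicate 2 and at 9.0 to 9.20 CPM in the other controls (gap 0.953 of the range). Plxna3 was at 230.3 CPM in control replicate 1 and at 176 to 184 CPM in the other controls (gap 0.845). Sema4d was at 24.1 CPM in mutant replicate 3 and at 28.9 to 29.6 CPM in the other mutants (gap 0.883), and its groups do not overlap with or without that sample. Plxnb3 was at 1.54 CPM in mutant replicate 3 and at 0.470 to 0.636 CPM in the other mutants (gap 0.845), from 45 counts against 11 to 16.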

How the results depend on the processing

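Counts of 14 lower and 4 higher members were also given by DESeq2, limma-voom, DESeq2's size factors, both blocks and the stricter filter. Over all genes these fits called 2911 to 3427 lower and 2932 to 3208 higher. With the replicate block the counts of members were 14 and 4. Same-numbered control and mutant samples shared a lane, which was 5 for replicates 1 and 2, 6 for replicate 3 and 7 for replicate 4. With the lane block the counts of members were also 14 and 4. Nothing says that equal numbers mark related mice. The correlations of same-numbered samples' deviations were 0.171, -0.068, 0.213 and -0.024, and not every sample correlated best with its own number. With each replicate left out, 12 to 14 members were lower and 4 to 5 higher, while 2375 to 3273 of all genes were lower and 2199 to 3308 higher. With library totals the count of lower effector and partner genes went from 26 to 17 (18 without mutant replicates 1 and 2, 20 to 29 with 1 sample left out). Lower calls over all genes went from 3128 to 2102 (1581 without mutant replicates 1 and 2). The median log2FC over all genes was 0.02 in the first fit, 0.15 with library totals and 0.02 without mutant replicates 1 and 2. Its part in these counts was not tested. Of 527 values of single members, 497 kept direction and call, 13 lost the call (Sema3g, Sema6b, Plxnb1 and Sema4a), 7 gained one (Sema3d, Sema3e and Sema4b) and 10 changed sign, in 3 genes with no call. Sema3f, between -0.072 and 0.077 with 1 sample left out, turned to -0.0031 (DESeq2), -0.037 (without control replicate 2), -0.072 and -0.019 (without mutant replicates 1 and 4). Sema4g, at most 0.17 with 1 sample left out, turned to -0.016 (without mutant replicate 4) and -0.010 (without mutant replicates 1 and 2). Sema5b, at least -0.067 with 1 sample left out, turned to 0.11 (library totals), 0.0019 (stricter filter), 0.073 (without control replicate 1) and 0.0023 (without mutant replicate 4). The cause of these sign changes was not tested. The values of Plxnb3 and Sema3g rest on few counts, and the effect of depth on them was not tested.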

Other observations

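Ratios of members to marker genes, in counts per kilobase within a sample, were set side by side after the values had been seen and carry no test. Plxnb3 over Pdgfra, an oligodendrocyte precursor gene, was 0.0378 to 0.0481 in control and 0.00689 to 0.0248 in dcKO_hGFAP-Cre cortex, without overlap. Plxnb3 over Sox10, a gene of the whole lineage, was 0.0506 to 0.0788 in control and 0.0223 to 0.0594 in the mutants, where replicate 3 lay among the controls. Nrp1 over Cldn5, an endothelial gene, was 0.103 to 0.151 in control, 0.0470 to 0.0559 in mutant replicates 1 to 3 and 0.122 in mutant replicate 4. Plxnc1 over Csf1r, a microglia gene, was 1.02 to 1.63 in control and 1.15 to 1.92 in the mutants, with overlapping ranges.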
